A study of Homo sapiens with 93 samples.

Results

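A set of 9 genes of the HLA class II pathway was followed by a chromatin mark in human B cell lines. They were taken by Ensembl identifier from the count table as the genes of HLA-DP (HLA-DPA1 and HLA-DPB1), HLA-DM (HLA-DMA and HLA-DMB) and HLA-DO (HLA-DOA and HLA-DOB), the invariant chain CD74, and the regulators CIITA and RFX5. All 9 of 9 were present, among 14000 features in the table, and all 9 passed the filter on low counts (at least 10 counts in at least 47 libraries), which 13915 features passed. The files give identifiers and no symbols, and the symbols of the 9 genes came with the rule that chose them. No measured value entered that rule, though the genes were chosen with earlier results of these data known.

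The study profiled H3K36me3, histone H3 trimethylated at lysine 36, by CUT&Tag in 93 lymphoblastoid cell lines. Such lines are B cells that grow without limit after infection with Epstein-Barr virus, and CUT&Tag uses an antibody to bring a transposase to the mark so that the DNA there is cut and sequenced. All 93 libraries formed 1 group of untreated lines with 1 library per line, grown in medium with 20% serum and processed as 100000 frozen cells each with polyclonal antibody and 14 PCR cycles, per the labels' protocols. The lines were cultured in 4 batches, and the batch of each line was not given in the sources used here, so line, culture batch and library preparation cannot be told apart and no values within a batch can be given. The p-values below measure the spread between lines with 1 library each.

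HLA class II molecules carry peptides from the endosomal route to the cell surface, where helper T cells read them. Each is a pair of an alpha and a beta chain that assembles on the invariant chain; HLA-DM then exchanges the leftover invariant chain fragment for peptide, and HLA-DO restrains HLA-DM, mainly in B cells. The RFX complex, of which RFX5 is a subunit, binds the promoters of these genes together with other factors, and CIITA joins them there as the coactivator that sets class II transcription. H3K36me3 is laid down over gene bodies behind elongating RNA polymerase, so it is a mark of transcribed genes and not a measure of transcript.

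Class II promoters are known for an X box followed at a set distance by a Y box, and the 6 HLA genes are shown here by that stretch because their mark is compared below with that of the factors that act there. The sequences are from RefSeq (GRCh38.p14), on the gene's own strand, 5′ to 3′. Capitals mark a CCNAG element and, 30 to 32 bases further on, an ATTGG or ATNNG element, with the bases between in lower case.
HLA-DPA1, minus strand, chr6:33073704-33073757: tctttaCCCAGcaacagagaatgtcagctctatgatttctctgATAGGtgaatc
HLA-DPB1, plus strand, chr6:33075849-33075901: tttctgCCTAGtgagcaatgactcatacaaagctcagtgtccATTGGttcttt
HLA-DMA, minus strand, chr6:32953166-32953219: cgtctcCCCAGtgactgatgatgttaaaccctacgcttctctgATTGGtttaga
HLA-DMB, minus strand, chr6:32941072-32941125: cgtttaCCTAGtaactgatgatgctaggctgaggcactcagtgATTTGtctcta
HLA-DOA, minus strand, chr6:33009648-33009701: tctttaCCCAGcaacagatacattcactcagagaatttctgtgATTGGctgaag
HLA-DOB, minus strand, chr6:32817090-32817141: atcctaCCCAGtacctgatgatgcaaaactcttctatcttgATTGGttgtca

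The windows of HLA-DPA1, HLA-DMA, HLA-DMB and HLA-DOA had the same gap of 32 bases between the 2 elements, while that of HLA-DPB1 had 31 and that of HLA-DOB 30. The motifs were written down after these sequences had been read, so their presence in the members is a description. Each was searched on both strands of 35116 RefSeq promoters of 300 bases, from 250 before to 50 after a start. CCNAG followed after 28 to 34 bases by ATTGG was in 1.82% of them and in the promoters of HLA-DPB1, HLA-DMA, HLA-DOA and HLA-DOB. The looser form ending in ATNNG, which contains the stricter one, was in 15.6% of all promoters and also took in HLA-DMB and the downstream start of HLA-DPA1. CTGATGATG, which lies between the elements in HLA-DMA, HLA-DMB and HLA-DOB, was in 0.271% of all promoters. ATTGG alone was in 34.6%, so it sets few promoters apart. Of the 9 genes 8 had an entry; among them CD74 matched the looser form and the 3 starts of RFX5 matched neither form.

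Every one of the 9 genes carried reads in every line, with a lowest count of 18 (HLA-DOB) and library totals from 2842955 to 24325746 (median 14883653). Levels are given as CPM, counts scaled to the library total after its TMM factor, a scaling that evens out the bulk of features between libraries (0.916 to 1.05), and, to set genes beside each other, as CPM per kb of the RefSeq gene span. The interval in which reads were counted was not given in the sources used here, so the per-kb order depends on that span.

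Of the peptide-presenting chains, HLA-DPA1 (ENSG00000231389.7, chr6:33064569-33080748), the alpha chain of HLA-DP, ran from 22.3 CPM through a median of 47.5 to 72.7 CPM over the 93 lines. HLA-DPB1 (ENSG00000223865.11, chr6:33075990-33089696), its beta chain, ran from 20.8 through 46.1 to 70.1 CPM. The ranges of the 2 chains nearly coincided, and the alpha chain was the higher of the pair in 49 of 93 lines. Their RefSeq spans overlap over 4759 bases, and how reads there were assigned was not stated; the part of shared reads in the likeness of the pair was not tested. The pseudogenes HLA-DPA2 and HLA-DPB2 lie beside them and resemble them, which makes the split of reads uncertain.

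For the peptide editor HLA-DM, HLA-DMA (ENSG00000204257.15, chr6:32948618-32953097) ran from 29.1 through 47.5 to 71.3 CPM. HLA-DMB (ENSG00000242574.9, chr6:32934636-32941028) ran from 12.1 through 32.4 to 54.8 CPM. The alpha chain gene was the higher in 92 of 93 lines, with a median ratio of 1.47. For HLA-DO, the inhibitor of HLA-DM, HLA-DOA (ENSG00000204252.14, chr6:33004182-33009591) ran from 12.1 through 26.6 to 43.1 CPM, and HLA-DOB (ENSG00000241106.8, chr6:32812763-32817002) from 4.26 through 13.5 to 20.4 CPM. HLA-DOB had the fewest reads of the 9 genes, a median of 188 per line, and HLA-DOA exceeded it in 92 of 93 lines.

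CD74 (ENSG00000019582.15, chr5:150401639-150412910), the invariant chain that occupies the peptide groove during assembly, ran from 145 through 291 to 546 CPM. CIITA (ENSG00000179583.19, chr16:10866206-10943021) ran from 123 through 269 to 414 CPM over a much longer span, of which 13578 bases also belong to DEXI; reads from the 2 genes cannot be told apart there. These 2 were higher than 97.2% and 96.7% of the features tested, before any division by length. RFX5 (ENSG00000143390.17, chr1:151340640-151347252) ran from 33.3 through 51.9 to 74 CPM, close to the median feature at 42.6 CPM. It shares 243 bases with its antisense gene RFX5-AS1.

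**Figure D1:**
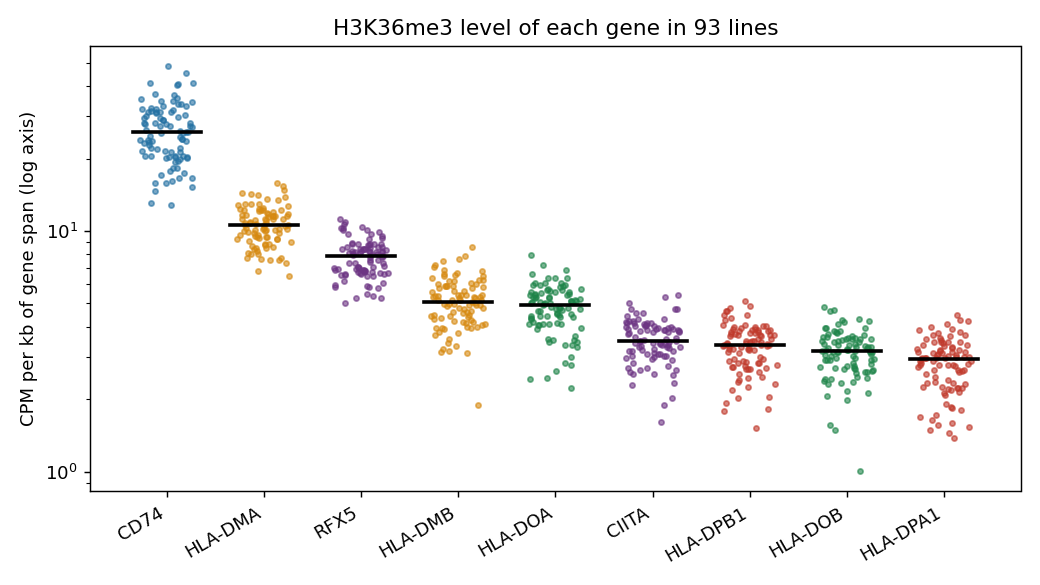
H3K36me3 level of each of the 9 genes in 93 lines, in CPM per kb of RefSeq gene span on a log axis, with 1 point per line and a black bar at the median. CD74 (median 25.8) lies above the rest, and HLA-DPA1 (2.93 over its full span, up to its upstream start) has the lowest median.

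Per kb, CD74 was the highest in all 93 lines, at a median of 25.8 CPM per kb against 10.6 for HLA-DMA. HLA-DMA exceeded RFX5 (7.85) in 91 lines, and RFX5 exceeded HLA-DMB (5.06) in 92. HLA-DMB and HLA-DOA (4.91) did not separate: HLA-DMB was the higher in 57 lines, with a median log2 ratio of 0.05 ± 0.31 (SD, n = 93). HLA-DOA exceeded CIITA (3.51) in 89 lines. The last 4 in the order lay close together, since CIITA exceeded HLA-DPB1 (3.36) in 69 lines, HLA-DPB1 exceeded HLA-DOB (3.18) in 49, and HLA-DOB exceeded HLA-DPA1 (2.93) in 59, with median log2 ratios of 0.13 ± 0.20, 0.01 ± 0.40 and 0.20 ± 0.44. By these medians over the full RefSeq spans, both chains of HLA-DP, the presenting molecule, had less mark per kb than both chains of HLA-DM. The span of HLA-DPA1 runs to its upstream start. A shorter span from its downstream start, whose window is shown above, would give HLA-DPA1 a higher value per kb. The order with that shorter span was not computed, so the place of HLA-DPA1 is uncertain. CIITA lies in a stretch of table rows, after row 3200 up to row 7700, whose median log2 CPM was 4.87 against 5.79 in the rows that hold the HLA genes and CD74, so its place in the order between genes is uncertain. Its differences between lines do not use that comparison.

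The ratio of alpha to beta gene was then taken within each line. The ratio of HLA-DPA1 to HLA-DPB1 ran from 0.687 to 1.27 over lines, an SD of 0.20 on the log2 scale, where counting error alone would give 0.10. HLA-DMA to HLA-DMB ran from 0.974 to 2.52, with an SD of 0.21 against 0.11. HLA-DOA to HLA-DOB ran from 0.980 to 5.81, with an SD of 0.41 against 0.16. The HLA-DO pair had the widest range and also the largest counting error. With 1 library per line, variation from library preparation is in these SDs too, so they do not show that the lines themselves differ in the ratio, and the difference between the 3 SDs was not tested. The highest HLA-DO ratio came from 1 line with 42 reads on HLA-DOB (4.26 CPM, where the next lowest line had 6.32), chosen here after its value was seen. By CPM the other 8 genes in that line ran from place 15 from the lowest (HLA-DMA) to place 75 (HLA-DMB) of 93, with HLA-DOA at 37 and CIITA at 28. By CPM the line was thus among the 9 lowest for HLA-DOB only. With the library properties described below removed, it was among the 9 lowest for 6 of the 9 genes, HLA-DMA, CIITA, RFX5 and CD74 included. On that scale HLA-DOB lay at -1.55 log2 and the other 8 genes between -0.54 and -0.15.

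The next question was how far each gene differs between lines. No line reached 2 times the median for any of the 9 genes, while the ratio of the highest to the lowest line ran from 2.22 for RFX5 and 2.45 for HLA-DMA to 4.53 for HLA-DMB and 4.80 for HLA-DOB. Low lines were more common than high ones: HLA-DPA1 had 13 lines at least 1.5 times below its median and 1 above, and CD74 had 10 below and 6 above. The median feature had 3 below and 1 above. CD74 had the widest spread for its size, a coefficient of variation (SD divided by mean) of 0.281 over lines. HLA-DPA1 followed at 0.250, and RFX5 was the lowest at 0.178, against a median of 0.205 over all features.

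**Figure D2:**
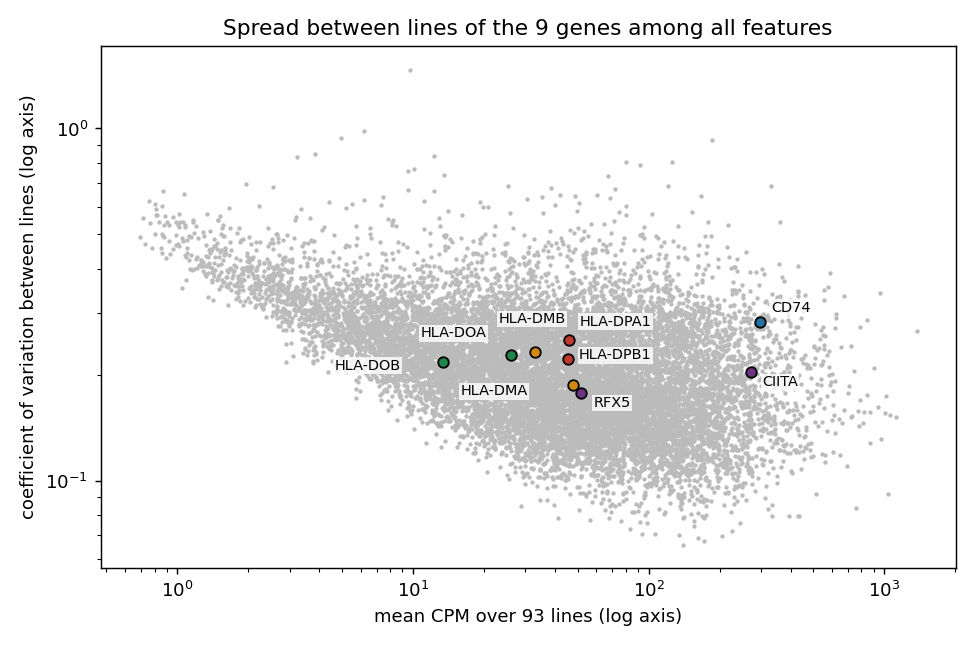
Coefficient of variation over 93 lines against mean CPM, both on log axes, for all features tested (grey) and the 9 genes (labelled). CD74 (0.281) lies high among features of like level, and RFX5 (0.178) lies low among the 9.

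Variation beyond that of features with like counts was tested with edgeR's goodness-of-fit test at the trended dispersion, with the library total and the dynamic range of each library as covariates. The dynamic range is the gap in median log2 CPM between the features of highest and of lowest mean. After Benjamini-Hochberg adjustment over all features at 0.05, 6 of the 9 genes were called variable, where the background was 18.6% of 13915 features. CD74 had 1.37 log2 more dispersion than the trend (adjusted p = 1.66e-14), and HLA-DPA1 had 0.91 more (adjusted p = 8.35e-06). HLA-DPB1 (0.70, adjusted p = 0.00129), HLA-DOA (0.56, 0.0197), HLA-DMB (0.48, 0.0326) and CIITA (0.47, 0.0336) also passed. HLA-DMA (0.20, adjusted p = 0.572), HLA-DOB (0.31, 0.251) and RFX5 (-0.60, 1) did not. The calls of CD74 and HLA-DPA1 held in all 7 edgeR alternatives, whereas those of HLA-DPB1, HLA-DOA, HLA-DMB and CIITA were each lost in at least 1. DESeq2, which marks single features far above its trend, marked 242 features and 0 of the 9.

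The level of every gene but HLA-DOB also moved with a property of the library. With both properties in 1 edgeR fit, 8 of 9 genes rose with the dynamic range, as did 44.5% of all features. HLA-DPA1 rose the most, by 1.20 ± 0.23 (SE) log2 per unit of range (adjusted p = 1.54e-06), and HLA-DOB did not pass (0.13, adjusted p = 0.62). The range is itself computed from the features of highest mean, CD74 and CIITA among them, and those of lowest mean, HLA-DOB among them. The rise of CD74 and CIITA and the lack of one for HLA-DOB are therefore partly built into the measure. HLA-DOA, CIITA and RFX5 also rose with the library total, by 0.19 ± 0.05, 0.15 ± 0.04 and 0.18 ± 0.03 per doubling, as did 29.2% of features. Both properties were therefore removed before genes were compared with each other across lines.

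Whether the class II genes follow their coactivator from line to line was asked of every feature, as the slope of its log2 CPM on that of CIITA (edgeR quasi-likelihood test, two-sided, Benjamini-Hochberg over 13914 features). A slope of 1 means that the feature doubles where CIITA doubles. All 8 other genes had a positive slope and were called, where the background was 27.5% of features called positive and 49.2% called in either direction. Their median slope was 0.74, against 0.03 over all features. Because so much of the table moved with CIITA, the count alone says little, and the sizes and ranks carry the comparison.

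Ranked by p among the 13914 features, HLA-DPA1 was first, with a slope of 0.98 ± 0.07 (SE, adjusted p = 4.33e-19), and HLA-DPB1 was second, at 0.92 ± 0.07 (adjusted p = 4.33e-19). In this fit the chain genes of HLA-DP, on chromosome 6, thus came ahead of the feature on the next table row to CIITA (rank 3). Over the alternative filters, covariates, tools and library subsets, the rank by p ran from 1 to 4 for HLA-DPA1. For HLA-DPB1 it ran from 1 to 8, the last among the 46 shallower libraries. HLA-DMA came at rank 6, with a slope of 0.72 ± 0.06 (adjusted p = 1.15e-15), and CD74 was at rank 10 with 0.98 ± 0.10 (3.59e-13). HLA-DOA (0.77 ± 0.09, rank 19) and HLA-DMB (0.72 ± 0.09, rank 32) followed. HLA-DOB (0.69 ± 0.10, rank 272) and RFX5 (0.42 ± 0.06, rank 160) were further back, with adjusted p of 1.27e-07 and 3.59e-08. For HLA-DPA1, HLA-DPB1 and CD74 a doubling of the mark on CIITA went with close to a doubling on the gene, and for RFX5 with much less.

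**Figure D3:**
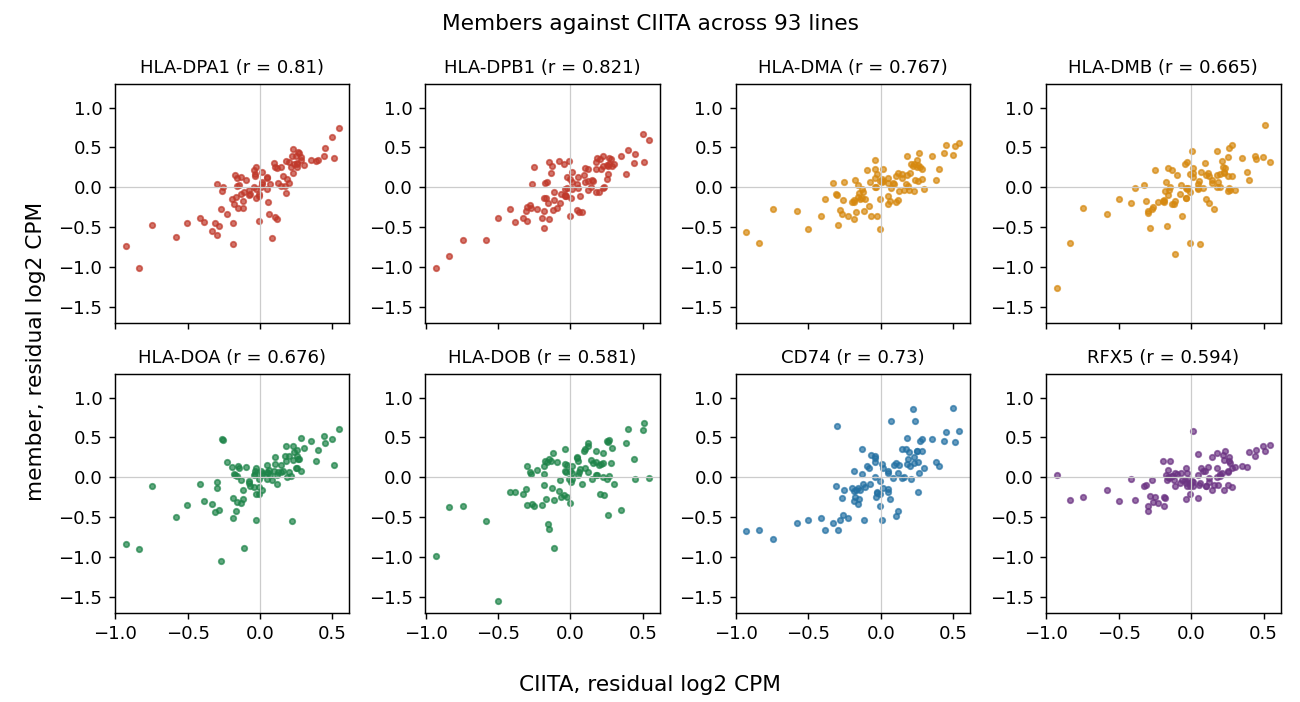
Residual log2 CPM (library total and dynamic range removed) of each of 8 genes on the vertical axis against that of CIITA on the horizontal axis, with 1 point per line (93 lines). HLA-DPB1 (r = 0.821) and HLA-DPA1 (r = 0.81) have the highest r with CIITA, and HLA-DOB (r = 0.581) and RFX5 (r = 0.594) the lowest.

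The slopes were then fitted with 5 principal components of all features in place of the 2 library properties, which takes out broad patterns shared across the table. Only 177 features (1.27%) were still called with CIITA, 0.697% in the positive direction, and 7 of the 8 genes were among them. HLA-DPB1 had the smallest p of all 13914 features, with a slope of 0.95 ± 0.11 (adjusted p = 2.53e-09), and HLA-DPA1 was second, with 0.82 ± 0.11 (6.1e-08). HLA-DMA (0.55 ± 0.08, rank 4), HLA-DMB (0.74 ± 0.12, rank 9), CD74 (0.72 ± 0.13, rank 16) and HLA-DOA (0.70 ± 0.14, rank 22) kept their calls, with adjusted p from 3.93e-06 to 0.000904. Between HLA-DMA and HLA-DMB by rank came 2 features next to CIITA in the table. The feature 2 rows before CIITA had 0.53 ± 0.08 (rank 5, adjusted p = 3.93e-06). That 1 row after it had 0.52 ± 0.08 (rank 7, adjusted p = 1.79e-05). Other rows around CIITA were not summarised. HLA-DOB had 0.53 ± 0.14 (adjusted p = 0.0326), and RFX5, at 0.25 ± 0.07, lost its call (adjusted p = 0.0559). Among the 46 shallower and among the 47 deeper libraries, all 8 were called with the library properties as covariates; HLA-DPA1 had 1.05 ± 0.13 and 0.99 ± 0.10 there.

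A few lines with a low mark on CIITA stood at the edge of these plots. Without the 4 lines farthest from its median, all 8 genes remained called with the library properties as covariates, and HLA-DPB1 had a slope of 0.85 and HLA-DMA of 0.77. With those lines left out and the 5 components as covariates, 31 features were called in all. HLA-DPB1 (0.82, adjusted p = 0.000245), HLA-DPA1 (0.75, 0.000563), HLA-DMA (0.50, 0.00597) and HLA-DOA (0.72, 0.0259) were 4 of them. HLA-DMB (0.53, adjusted p = 0.0832), CD74 (0.59, 0.105) and HLA-DOB (0.50, 0.233) kept a positive slope and lost the call in that fit.

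The 6 HLA genes lie on 11 neighbouring table rows, in the order of their RefSeq starts, interleaved with 5 other features, so a shared property of the region can be set beside the genes. The 6 genes had slopes on CIITA of 0.69 to 0.98 (median 0.74) and the 5 features between them of 0.17 to 0.56 (median 0.36). All 11 were called with the library properties as covariates. With the 5 components, the 6 genes had 0.53 to 0.95 (median 0.72) and kept their calls, while the 5 between them had 0.09 to 0.20 (median 0.16) and 0 of the 5 was called. The difference between these 2 sets of rows was not itself tested. In the 20 rows before HLA-DOB the median slope was 0.21, with 10 called. Of these 20 rows, 4 had slopes of 1.28 to 1.62, above every member, with SE of 0.36 to 0.66. The row among them with slope 1.35 ± 0.66 was not called (adjusted p = 0.0819). In the 20 rows after HLA-DPB1 the median was 0.25, with 15 called. With the components, 1 of those 40 rows was called: the feature 7 rows before HLA-DOB, at 0.84 ± 0.12. No identifier in those 40 rows could be paired with a symbol, so other class II genes may be among them. They are therefore not a background known to be free of such genes. Around CD74 and RFX5, on chromosomes 5 and 1, the 10 rows on each side had median slopes of -0.04 and 0.08. With the library properties as covariates, 3 of the 20 rows around CD74 were called positive and 6 negative. Around RFX5 6 of 20 were called positive and 2 negative. With the components 0 of 20 was called around either, and RFX5 itself also lost its call.

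**Figure D4:**
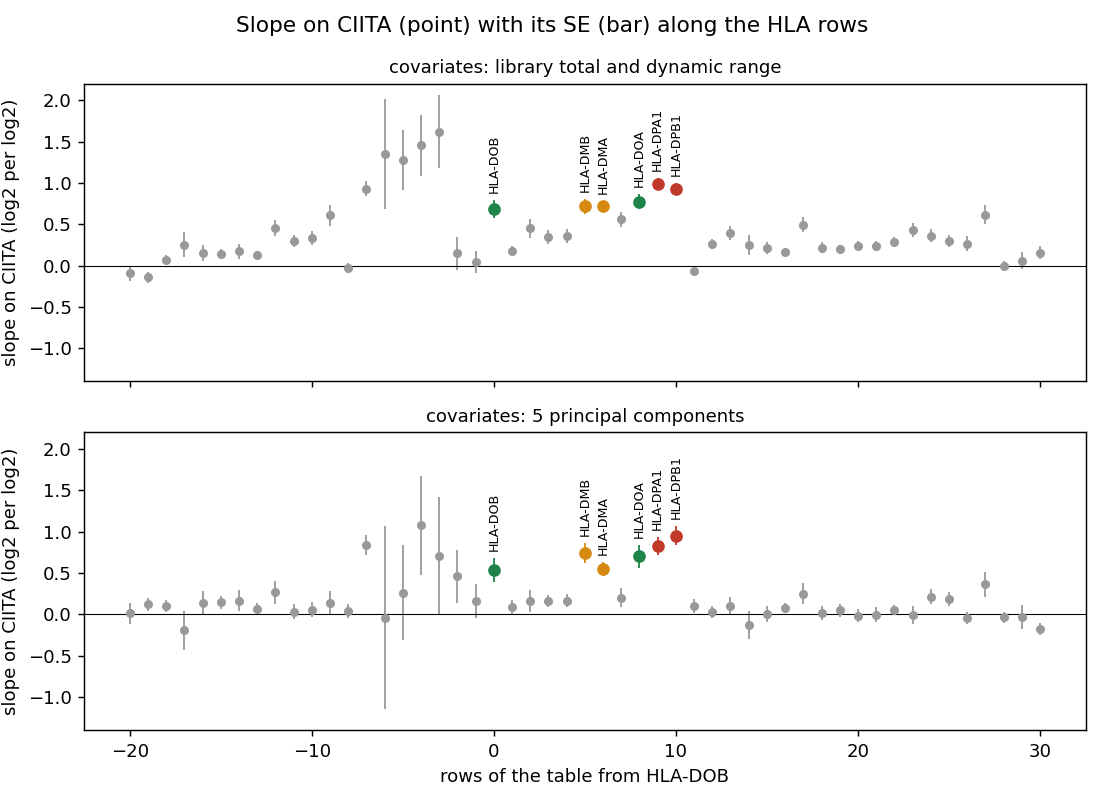
Slope of each feature on CIITA (log2 per log2, point) with its SE (bar) along table rows counted from HLA-DOB, for 2 sets of covariates. In the lower panel the 6 HLA genes (coloured) lie between 0.53 and 0.95, and the 5 grey features between them lie at or below 0.20.

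The same fit was made on RFX5, a subunit of the complex that binds class II promoters. All 8 other genes were again called positive, where 32.6% of features were called positive and 58.4% in either direction. The slopes ran from 0.49 ± 0.17 for HLA-DOB (adjusted p = 0.00905) through 0.83 ± 0.12 for CIITA (2.76e-09) to 1.03 ± 0.14 for HLA-DPA1 (1.27e-09), with a median of 0.79 against 0.05 over all features. The smallest p among the 8 was that of HLA-DPA1, at rank 499 of 13914, while CIITA was at 601 and HLA-DOB at 6538. With the 5 components as covariates 13 features (0.0934%; positive 0.0719%) were called and 0 of the 8 genes, with adjusted p from 0.145 for CIITA to 0.939 for CD74. Their slopes were then 0.06 for CD74 and 0.28 to 0.52 for the other 7. In subsets of libraries, HLA-DOA (0.37, adjusted p = 0.13) and HLA-DOB (0.45, 0.145) lost the call among the 46 shallower, and HLA-DOB (0.41, 0.194) among the 47 deeper. Whether slopes on CIITA and on RFX5 differ was not tested.

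Pairs of the 9 genes were then compared directly, as correlations over the 93 lines of residual log2 CPM. There were 36 pairs, with two-sided permutation p-values from 100000 resamples, of which 1e-05 is the smallest possible; they are given unadjusted, as a description beside the fits. All 36 Pearson r were above 0, from 0.274 to 0.827 with a median of 0.611, whereas r of the 9 genes with all other features ran from -0.759 to 0.865 with a median of 0.0273. The 21 pairs on different chromosomes (median 0.594) were nearly as close as the 15 pairs within the HLA region (median 0.641).

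HLA-DPA1 and HLA-DPB1 were the closest pair (r = 0.827, rho = 0.788, each permutation p = 1e-05), and each was the other's nearest of 13914 features. CIITA was second for both, with r = 0.821 and rho = 0.747 for HLA-DPB1 and r = 0.81 and rho = 0.805 for HLA-DPA1 (each permutation p = 1e-05). Without the 2 lines farthest from the median of CIITA, r was 0.772 and 0.775. HLA-DMA was closest to HLA-DPA1 (r = 0.799, rho = 0.81, permutation p = 1e-05) and then to its partner HLA-DMB (r = 0.783, rho = 0.795, permutation p = 1e-05), for which it was in turn the first of all features. HLA-DOA was closest to CIITA (r = 0.676, rho = 0.676, permutation p = 1e-05; 0.602 without 2 lines). In HLA-DP and HLA-DM the alpha and beta genes had each other among their 2 nearest features in the table.

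The chains of HLA-DO had the lowest r of the 3 dimers. HLA-DOA and HLA-DOB had r = 0.342 and rho = 0.3 (permutation p = 0.0009 and 0.00365), with r = 0.26 without 2 lines. HLA-DOB was at rank 701 among features for HLA-DOA. With 5 principal components removed instead of the library properties, the pair had r = 0.112 (permutation p = 0.285). HLA-DOB was closest among the 9 to CIITA (r = 0.581, rho = 0.489, each permutation p = 1e-05; 0.526 without 2 lines), at rank 4 of all features. HLA-DOB also had the lowest counts of the 9; their part in its lower r was not tested. CD74 followed HLA-DPA1 (r = 0.749, rho = 0.739) and CIITA (r = 0.73, rho = 0.707, each permutation p = 1e-05), yet HLA-DPA1 stood only at rank 38 for it. The feature closest to CD74 had r = 0.865, that closest to RFX5 0.747 and that closest to HLA-DOB 0.597, and none of these is among the 9 genes or could be named. RFX5 had its closest member in HLA-DPA1 (r = 0.611, rho = 0.608, permutation p = 1e-05), at rank 221. Its weakest was HLA-DOB (r = 0.274, rho = 0.276, permutation p = 0.0075 and 0.0078), which is also the lowest of the 36 pairs in these residuals. With 5 principal components removed instead, CD74 with RFX5 had r = 0.0436 (permutation p = 0.677). In the alternatives, r of HLA-DOB with RFX5 was at least 0.216.

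**Figure D5:**
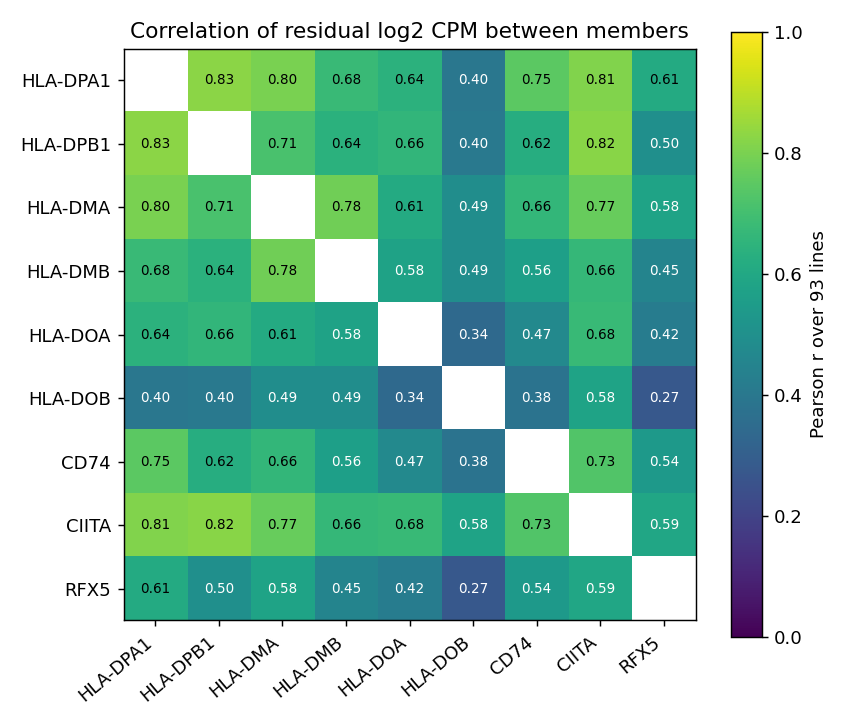
Pearson r over 93 lines of residual log2 CPM for the 36 pairs of the 9 genes, as colour and number. HLA-DP, HLA-DMA and CIITA form the closest block (0.711 to 0.827), and HLA-DOB with RFX5 is the lowest pair (0.274).

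The same lines tended to be low or high for many of the genes at once. When the 9 lowest lines of each gene were counted by residual log2 CPM, with both library properties removed, at least 1 line was low for all 9 genes, 5 lines were low for at least 5 of them, and 59 lines were low for none. Among the 9 highest, 6 lines were high for at least 5 genes and 62 for none. Library totals of the 5 low lines ran from 5484583 to 19768004 (median 10092195). Those of the 6 high lines ran from 5277645 to 24325746 (median 15622945). Because these lines were picked after the library total had been removed, how their totals compare says little about its part. By CPM, before those properties were removed, no line was low or high for all 9 genes (at most 8 in either case), 5 lines were low and 6 high for at least 5, and 56 were low and 64 high for none.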

How the data were processed

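The authors deposited whole-number read counts and, in a second table, a normal score of each feature in each of 93 libraries; the sorted scores were identical in all 93 libraries (-3.92 to 3.92), and how they were made was not given in the sources used here. Per the submitters' processing notes, HISAT2 2.2.1, bedtools and the hg38 build were used, in roles that are not stated. Counts were scaled with TMM factors in edgeR 4.0.16 (R 4.3.3) for every test, and log2 CPM used a prior count of 2. A feature was tested where 47 or more libraries had 10 or more counts. Alternatives used limma 3.58.1, DESeq2 1.42.0, other filters, covariates and subsets of libraries. Scripts were tested on simulated data. All 9 genes are named, as the rule for named genes asked; it also asked for genes from pathway, neighbour and cell type marker lists and for the features most like each gene, but no other identifier could be paired with a symbol, so those lists, and a check of the lines against B cell markers, were not used. The genes and lists were chosen with earlier results of these data known.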

Additional observations from a re-analysis of the deposited data

How the results depend on the processing

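Counting error limits HLA-DOB most (median 188 reads), and the counted interval limits levels between genes. Among slopes of single genes under the alternatives, 184 kept direction and call, 23 lost the call and 1 turned sign: CD74 on RFX5, at -0.0390 with the 5 components and without the 4 lines farthest from the median of CIITA, an alternative chosen after seeing the data. Among dispersion ratios, 53 held, 15 lost the call and 4 turned sign: HLA-DMA had -0.337 without covariates and -0.448 with 5 components, and HLA-DOB had -0.295 and -0.0422. Variable features numbered 2586, against 242 by DESeq2 outliers. Features following CIITA numbered 6852, against 177 with 5 components, 31 with those and without 4 lines, 2783 among the 46 libraries of smaller total and 3981 among the 47 of larger total. Features following RFX5 numbered 8126, against 13, 14 (with those and without 4 lines) and 4407 in the 47 deeper libraries. The median pair correlation fell from 0.611 to 0.404 with 5 components removed, and 6 of 36 pairs then lost p under 0.05. Those pairs were HLA-DOB with HLA-DPA1, HLA-DPB1, HLA-DOA and CD74, and RFX5 with HLA-DOA and CD74. The cause of these changes was not tested, and the subsets also held fewer libraries. No paired analysis was possible because the design has a single group and each line was assayed once.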
